A study of Mus musculus with 48 samples.

Results

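The acute phase response is the set of liver-secreted plasma proteins, receptors and signalling genes that respond to inflammation. The 35 genes described here were chosen by symbol from the deposited gene count table, and all 35 were found among its 30055 gene symbols. They comprise 24 secreted proteins (Saa1, Saa2, Saa3, Saa4, Hp, Hpx, Orm1, Orm2, Orm3, Lcn2, Fga, Fgb, Fgg, Fgl1, Itih3, Itih4, Crp, Apcs, Cp, Serpina3n, Serpina3m, Serpina3k, Hamp and Lbp) and 11 receptors, antagonists, transducers and intracellular targets (Il1r1, Il6ra, Il1rn, Socs3, Stat3, Steap4, Mt1, Mt2, Cebpb, Cebpd and Nfkbiz). PolyA RNA was sequenced from liver and visceral white adipose tissue (called fat here) of C57BL6/J mice of both sexes, with no transgene or engineered allele named in the labels. From 8 weeks of age the mice ate a regular chow diet (RD) or a high-fat diet (HFD) with 45% of its calories from fat. They were sampled after 2 or 12 weeks on the diet. Tissue, diet, sex and time gave 16 groups of 3 libraries, 48 in all. Libraries are named here by diet, sex and the number in their label (HFD male 13). The labels do not say that each library came from a separate mouse, so the p-values measure the spread between libraries, nor that a liver and a fat library with 1 number came from 1 mouse.

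Inflammatory cytokines set off the acute phase response in hepatocytes. Interleukin 6 acts through its receptor and the transcription factor STAT3, interleukin 1 acts through its own receptor and NF-kB, and C/EBP factors bind the promoters of many of the secreted proteins. SOCS3 is a STAT3 target that feeds back on the interleukin 6 signal, and Il1rn encodes an antagonist of the interleukin 1 receptor. In mice serum amyloid A is a main acute phase reactant of the liver, whereas Crp responds little, and fat cells themselves express several of these genes, among them Hp, Lcn2, Saa3 and Lbp.

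Library totals ran from 50.9 to 80.1 M estimated counts in liver and from 44.7 to 105 M in fat. Levels are CPM (counts per M of the library total) scaled by the trimmed mean of M values. All 35 genes passed the filter on low counts in both tissues, where 15897 genes were tested in liver and 18325 in fat. The summed level of 10 hepatocyte markers was 22500 to 31310 CPM in liver and 310 to 5439 CPM in fat, and that of 8 adipocyte markers was 15.3 to 85.38 CPM in liver and 6601 to 28790 CPM in fat. Both labels therefore matched their tissue's markers. Where the text gives a fold change, it is the log2 value with its standard error (SE) from edgeR's quasi-likelihood fit, the p-value is adjusted over all genes tested in that comparison by Benjamini-Hochberg, and a gene is called at an adjusted p under 0.05. In whole tissue, fewer cells of a type and less RNA per cell cannot be told apart.

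Of the 35 genes, 27 had a promoter in the RefSeq table for GRCm38.p6. Short letter motifs were searched on both strands in the 250 bases before each start: TTGCNNAA for C/EBP, TTCNNNGAA for STAT factors and CTGGGAA for the interleukin 6 response element. The C/EBP letters stood in 14 of the 27 (51.9%) and in 9.56% of all promoters in the table. For the STAT letters the shares were 7 of 27 (25.9%) and 7.02%, and for CTGGGAA they were 5 of 27 (18.5%) and 9.1%. The metal response letters TGCGCNC or TGCACNC stood in 4 (14.8%) against 21.4%, the glucocorticoid receptor letters (GNACA, 3 free bases, TGTNC) in 2 (7.41%, Mt1 and Serpina3n) against 0.387%, and the NF-kB letters (GGGAN followed by TTNCC) in 0 against 0.98%. No matches of different motifs overlapped. The 27 genes had 31 listed promoters, and a gene counted once if any of its promoters matched. Shares over the whole table are per promoter, so the units differ. Near copies such as Saa1 and Saa2 counted separately. A match describes letters and shows no binding.

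The 190 bases before the start listed in the RefSeq table are printed for 6 genes that the results below turn on. They are 3 serum amyloid A genes that were high in 1 liver library and 3 genes with STAT letters. The stretches are written 5′ to 3′ on the gene's strand, and the capitals mark matches to the first 3 motifs on either strand. The positions on GRCm38.p6 are chr7:46742981-46743170 (minus strand) for Saa1, chr7:46751643-46751832 (plus) for Saa2, chr7:46715677-46715866 (minus) for Saa3, chr5:7960282-7960471 (plus) for Steap4, chr11:117969367-117969556 (minus) for Socs3 and chr7:30944030-30944219 (minus) for Hamp.
Saa1: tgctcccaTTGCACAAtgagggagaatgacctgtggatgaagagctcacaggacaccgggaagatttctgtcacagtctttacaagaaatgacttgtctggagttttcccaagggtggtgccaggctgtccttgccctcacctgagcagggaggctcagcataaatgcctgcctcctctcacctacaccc
Saa2: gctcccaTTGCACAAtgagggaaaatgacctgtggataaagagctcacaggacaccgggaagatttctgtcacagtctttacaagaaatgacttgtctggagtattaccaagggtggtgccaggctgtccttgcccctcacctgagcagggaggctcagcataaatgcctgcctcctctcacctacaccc
Saa3: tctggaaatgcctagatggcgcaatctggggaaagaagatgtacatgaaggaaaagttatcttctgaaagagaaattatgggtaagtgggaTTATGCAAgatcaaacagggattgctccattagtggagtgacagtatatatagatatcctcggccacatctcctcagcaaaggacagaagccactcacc
Steap4: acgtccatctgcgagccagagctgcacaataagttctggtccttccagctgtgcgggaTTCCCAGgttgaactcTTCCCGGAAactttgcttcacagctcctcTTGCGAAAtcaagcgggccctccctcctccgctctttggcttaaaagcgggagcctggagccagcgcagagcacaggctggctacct
Socs3: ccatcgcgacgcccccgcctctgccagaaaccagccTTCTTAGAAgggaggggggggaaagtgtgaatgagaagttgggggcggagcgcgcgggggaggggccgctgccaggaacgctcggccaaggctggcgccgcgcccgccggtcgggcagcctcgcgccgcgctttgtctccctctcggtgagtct
Hamp: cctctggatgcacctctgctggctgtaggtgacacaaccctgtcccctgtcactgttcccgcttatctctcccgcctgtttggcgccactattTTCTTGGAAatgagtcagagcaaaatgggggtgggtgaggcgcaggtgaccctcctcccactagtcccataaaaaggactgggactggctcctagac
Saa1 and Saa2 were near copies here: their aligned stretches had 185 identical bases, 4 mismatches and 2 gaps (96.9% identity), against 51% between Saa1 and Saa3. Saa1, Saa2 and Saa3 each carried C/EBP letters and no STAT letters in the stretch shown. Steap4, which encodes a metalloreductase of the plasma and endosomal membrane, carried all 3 motifs. Hamp, the iron hormone hepcidin, and Socs3 carried the STAT letters alone. The gene annotation places Socs3 at chr11:117966079-117970047 (minus strand), so its printed stretch lies inside that gene model.

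Genes with near-identical copies can exchange reads, and how the authors assigned such reads is not stated in the sources. In the transcripts of Saa1, 30.1% of all 31-base words also occurred in another gene, mainly Saa2 (26.8%). The share was 22.2% for Saa2, 27.5% for Orm1, 34.1% for Orm2, 35% for Serpina3m, 24.2% for Serpina3k, 21.6% for Serpina3n and 33.7% for Hamp, whose copy is Hamp2. Saa3 shared 7.5%, Orm3 shared 9.4% and Mt2 shared 0.6%. Levels of single genes within these families are therefore uncertain, and so is the split between their members.

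Across the 24 liver libraries the 35 genes spanned a wide range of levels. Per kilobase of transcript, the serine protease inhibitor Serpina3k had the highest median (3941 CPM per kb, range 1502 to 8963), followed by the fibrinogen chains Fgg (2096) and Fga (1944) and by the heme carrier Hpx (1749). The NF-kB cofactor Nfkbiz had the lowest median, 1.622 CPM per kb. Saa1 ranked 20 by its median of 78.86 CPM per kb, yet its highest library reached 17150, above the highest library of every other gene in the set. Saa3 ranked 34 with a median of 1.772 and a maximum of 442.4 CPM per kb. The median SD within groups of 3, on the log2 CPM scale, was 0.4941 for these genes in liver and 0.2988 over all genes tested. It was largest in the HFD males, 0.79 at both times, where all genes had 0.25 at 2 weeks and 0.31 at 12 weeks.

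**Figure D1:**
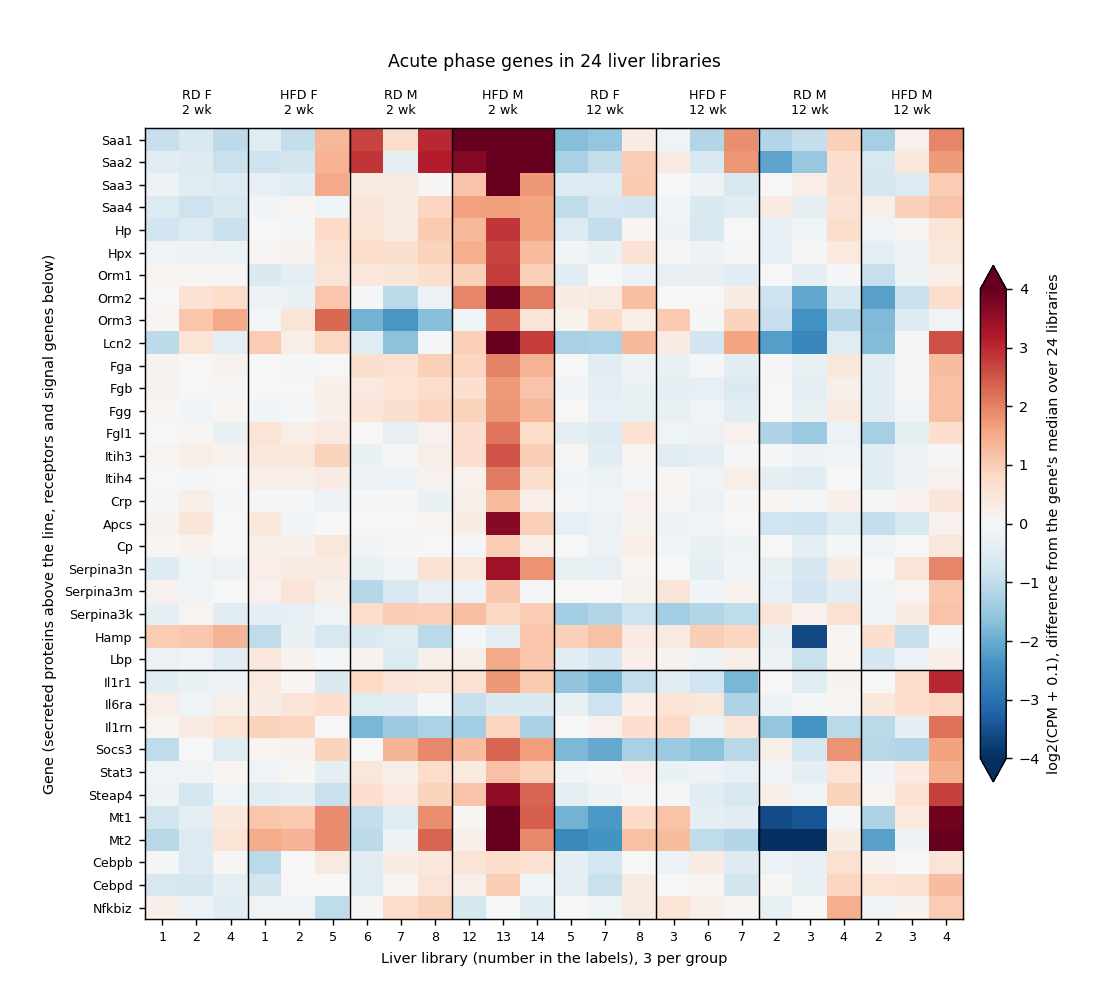
The heat map shows log2(CPM + 0.1) of the 35 genes (rows) in 24 liver libraries (columns, by group) as the difference from each gene's median, in a colour scale from −4 (blue) to 4 (red). HFD male 13 at 2 weeks and HFD male 4 at 12 weeks stand out as high columns, and were the highest of their 3 libraries for 32 and 34 of the 35 genes.

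In liver, 2 libraries stood furthest apart from their group. HFD male 13 at 2 weeks was the highest of its 3 libraries for 32 of the 35 genes, while it was highest for 35.9% of all genes tested. HFD male 4 at 12 weeks was highest for 34 of 35, against 40.0% of all genes. Some RD livers showed the same order with smaller gaps. RD male 4 at 12 weeks was highest for 30 of the 35 genes (34.4% of all genes). RD male 8 at 2 weeks (38.2%) and RD female 8 at 12 weeks (36.4%) were highest for 28 each. The genes' median log2 level over the other 2 libraries was 1.347 in HFD male 13 and 1.109 in HFD male 4. In these 3 RD livers it was 0.627, 0.403 and 0.464. These genes took up 13.7% of all counts in HFD male 13, against 5.82% and 7.09% in HFD males 12 and 14 and 2.59% to 5.76% in the liver libraries outside the HFD 2-week males. The edgeR calls and medians of these genes that use either library are also given without it. The median SD within the group, given above, was 0.295 for these genes without HFD male 13 and 0.296 without HFD male 4, over the 2 libraries left. Over all genes tested it was then 0.176 and 0.144. Leaving out a library picked because it stood apart lowers the SD of these genes by construction.

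Saa1, whose protein joins high-density lipoprotein in inflammation, was at 752, 10445 and 1592 CPM in HFD males 12, 13 and 14 at 2 weeks and at 314, 77.5 and 384 CPM in the 3 RD males. All HFD males were above all RD males, and male 13 exceeded each of the other two HFD males more than 5-fold. Saa2, its near copy, was at 110, 4081 and 537 CPM against 61.7, 6.6 and 74.5 CPM. Saa3, a serum amyloid A gene that is also expressed outside the liver, was at 8.64, 973 and 13.1 CPM against 5, 4.96 and 4.03 CPM. For Saa3 the HFD and RD groups did not overlap either, but 2 of the HFD libraries lay within 10 CPM of the RD males. Lcn2, a siderophore-binding lipocalin, followed the same order, with 23.1, 2372 and 81.9 CPM against 8.49, 3.76 and 11.6 CPM.

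The diet comparison of males at 2 weeks called 3 of the 35 genes, all higher on HFD, while 0.12% of all genes tested were called higher. Saa4, the constitutive serum amyloid A, was at 1043, 1066 and 1005 CPM on HFD and 466, 415 and 600 CPM on RD, with narrow and separate groups (log2 fold change 1.07 ± 0.22, adjusted p = 0.0413). Orm2, an orosomucoid or acid glycoprotein, was at 51.7, 661 and 55.6 CPM on HFD and 13, 6.22 and 11.3 CPM on RD (4.65 ± 0.93, adjusted p = 0.039). Itih3, a heavy chain of the inter-alpha-trypsin inhibitor, was at 958, 3390 and 1183 CPM against 502, 577 and 702 CPM (1.64 ± 0.32, adjusted p = 0.0267). In all 3 the lowest HFD male exceeded the highest RD male. None of the 3 was called without male 13, when their log2 fold changes were 1.05 for Saa4, 2.40 for Orm2 and 0.85 for Itih3. With 1 library left out at a time, edgeR kept the Saa4 call in 0 of 6 fits (adjusted p 0.0561 to 0.165). Its loss was therefore not particular to male 13. The calls of Orm2 and Itih3 were each kept in 2 of 6. The median log2 fold change over the 35 genes was 1.20 (0.55 without male 13), against 0.01 over all genes, and 24 had an unadjusted p under 0.05. With DESeq2, 17 of the 35 were called.

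The order of the libraries gave the same picture for the wider set of secreted proteins. All 3 HFD males were above all 3 RD males at 2 weeks for 20 of the 35 genes, and below them for 2, where 9.03% and 8.25% of all genes tested had such separate groups. With male 13 left out, HFD males 12 and 14 were both above all RD males for 21 of the 35 genes, where this held for 14.0% of all genes. Hp, the hemoglobin carrier haptoglobin, was at 4822, 13901 and 5767 CPM on HFD and at 2789, 2469 and 3999 CPM on RD. Hpx was at 7189, 17105 and 6287 CPM against 4307, 4075 and 4915 CPM, and Steap4 at 321, 1711 and 739 CPM against 233, 191 and 273 CPM. These HFD and RD groups did not overlap, and their adjusted p-values were 0.116 for Hp, 0.0995 for Hpx and 0.15 for Steap4. Nfkbiz was a gene with the opposite order, at 4.05 to 6.54 CPM on HFD and 6.86 to 12.9 CPM on RD (adjusted p = 0.342).

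**Figure D2:**
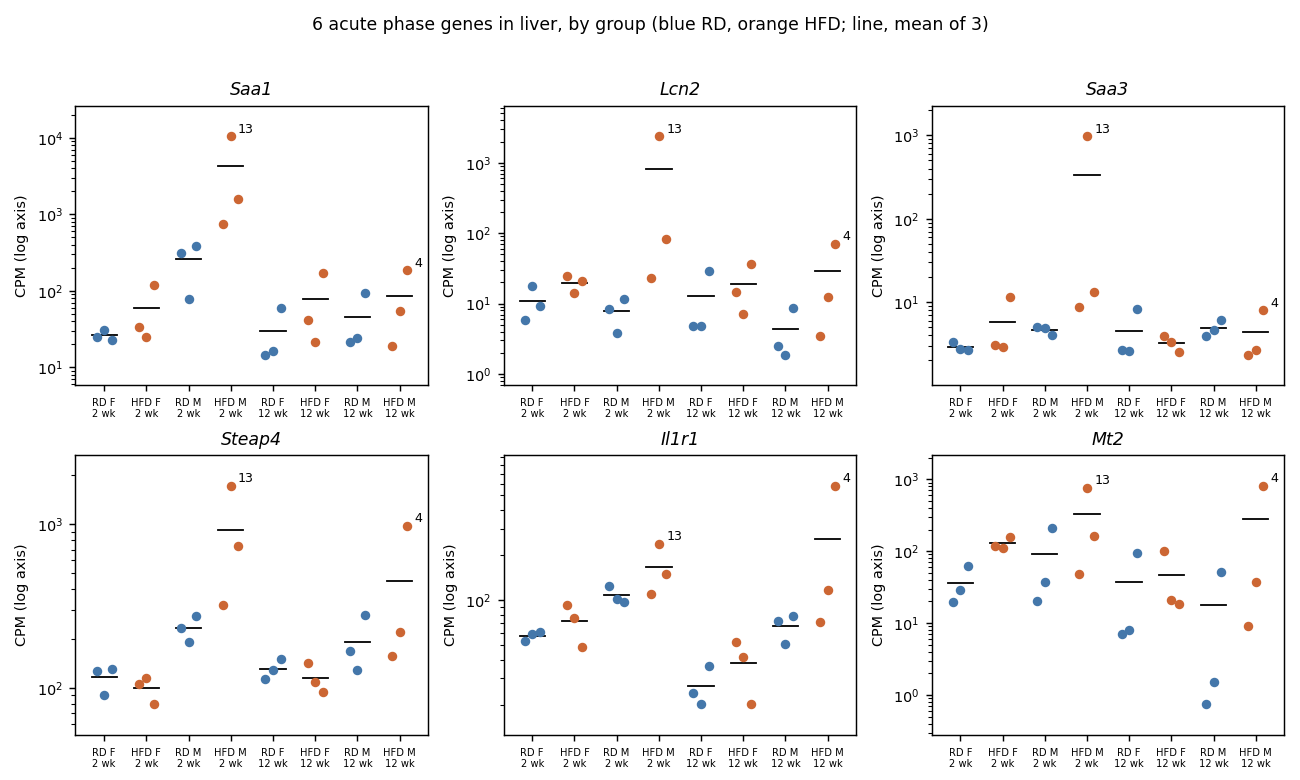
Each panel shows the CPM (log axis) of 1 gene, Saa1, Lcn2, Saa3, Steap4, Il1r1 or Mt2, in the 3 libraries (points) of each of the 8 liver groups, with a line at the mean of the 3. In HFD males Saa1 spans 752 to 10445 CPM at 2 weeks and 18.8 to 185 CPM at 12 weeks.

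Differences varied in size among the other secreted proteins in the same libraries. They were large in group mean for Apcs (598 CPM on HFD, 117 CPM on RD) and Serpina3n (2019 and 422 CPM). The fibrinogen chains Fga, Fgb and Fgg had their highest liver values in male 13, at 19707, 16168 and 12437 CPM. In HFD males 12 and 14 Fga was at 9068 and 13162 CPM, and the RD males ranged from 7722 to 9702 CPM. Crp, the mouse C-reactive protein, was at 493, 996 and 504 CPM on HFD and 351 to 435 CPM on RD (log2 fold change 0.75 ± 0.21, adjusted p = 0.12). Apcs, the serum amyloid P component and a classical reactant of the mouse, was at 140, 1430 and 225 CPM on HFD and 113 to 124 CPM on RD. The copper oxidase Cp was at 1458 to 3045 CPM against 1417 to 1572 CPM, and Lbp, which carries bacterial lipopolysaccharide, at 158 to 387 CPM against 91.6 to 158 CPM. Serpina3k did not follow male 13: it was at 18436, 14469 and 16304 CPM on HFD, with male 13 the lowest.

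Of the 11 receptors, transducers and intracellular targets, none was called for diet in these male livers. Il6ra, the interleukin 6 receptor alpha chain, was at 21, 26.7 and 26.8 CPM on HFD and 28.3, 29.2 and 39.1 CPM on RD, so the HFD libraries were all below the RD libraries. Stat3 was at 165 to 286 CPM on HFD and 148 to 207 CPM on RD, and Cebpb, a C/EBP factor, at 200 to 225 CPM against 104 to 185 CPM. Of 24 other signal transducers and transcription factors tested, 1 was called: Nfkbia, the NF-kB inhibitor, was lower on HFD at 15.59 ± 2.925 CPM (SD, n = 3) against 30.74 ± 3.42 CPM (log2 fold change −0.98 ± 0.18, adjusted p = 0.0217). Without male 13 it was not called (−0.94 ± 0.21, adjusted p = 0.129). None of the 14 other cytokines and receptors tested was called by edgeR; the smallest p among them was that of Tnfrsf1a, a tumour necrosis factor receptor, at a mean of 124.8 CPM on HFD and 76.51 CPM on RD (0.71 ± 0.24, adjusted p = 0.234, and 0.40 without male 13).

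Markers of other cells also stood high in HFD male 13 at 2 weeks. All 9 tested neutrophil markers were highest there among the 3 HFD males, 7 of them more than 2-fold above both others, with a summed level of 27.82 CPM against 7.244 and 7.599 CPM. The 12 macrophage and Kupffer cell markers were also highest there, 2 of them more than 2-fold, with sums of 895.5 CPM against 720.8 and 488.2 CPM. Of 10 hepatocyte markers, 9 were lowest in male 13. The part of these cells in the acute phase values was not tested.

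In males at 12 weeks edgeR called none of the 35 genes for diet, while 1.12% of all genes were called. At an unadjusted p under 0.05 there were 10, and DESeq2 called 3. The smallest p belonged to Il1rn, at 2.94, 4.93 and 29.2 CPM on HFD and 1.17 to 2.94 CPM on RD (log2 fold change 2.57 ± 0.72, adjusted p = 0.105). All 3 HFD males were above all RD males for 3 genes and below for 0, where 7.3% and 9.08% of all genes had such groups. Without HFD male 4 the counts were 3 above and 2 below, against 16.5% and 16.2% of all genes. The median log2 fold change of the 35 genes was 0.55, against 0.02 over all genes, and it was −0.03 without HFD male 4, when edgeR again called none of the 35.

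Many of the high HFD values came from male 4. Mt2, a metallothionein that binds zinc and copper, was at 9.22, 36.9 and 807 CPM in HFD males 2, 3 and 4 and at 0.744, 1.54 and 51.3 CPM in RD males 2, 3 and 4. Its neighbour Mt1 was at 26.6, 82.8 and 917 CPM against 5.13, 5.64 and 59.2 CPM. Both metallothioneins had their highest value within each diet in the library numbered 4, and the HFD and RD groups overlapped. Il1r1, the signalling receptor of interleukin 1, was at 71.4, 118 and 578 CPM on HFD and 72, 50.7 and 78.5 CPM on RD. Steap4 was at 156, 218 and 980 CPM against 167, 129 and 278 CPM, and Socs3 at 9.84, 9.51 and 66.1 CPM against 25.1, 13.4 and 75 CPM. For these 3 genes male 4 was the highest HFD library by at least 4-fold, and the groups overlapped.

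These 2 livers differed in which genes were high. Relative to the other two libraries of their group, 19 of the 35 genes exceeded 1 on the log2 scale in HFD male 13 at 2 weeks and 21 did so in HFD male 4 at 12 weeks, with 13 in common. That overlap is 13 of 19 in the first list and 13 of 21 in the second. For 9 genes male 13's excess was larger by more than 1 on the log2 scale (Saa3, Lcn2, Saa2, Apcs, Itih3, Orm2, Itih4, Orm3 and Orm1). For 6 genes male 4's was larger by that much (Hamp, Mt1, Serpina3k, Il1r1, Socs3 and Mt2). Saa3 had the widest gap, 6.51 in male 13 and 1.67 in male 4. These are single libraries, so the contrast between them has no replicate and no test.

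**Figure D3:**
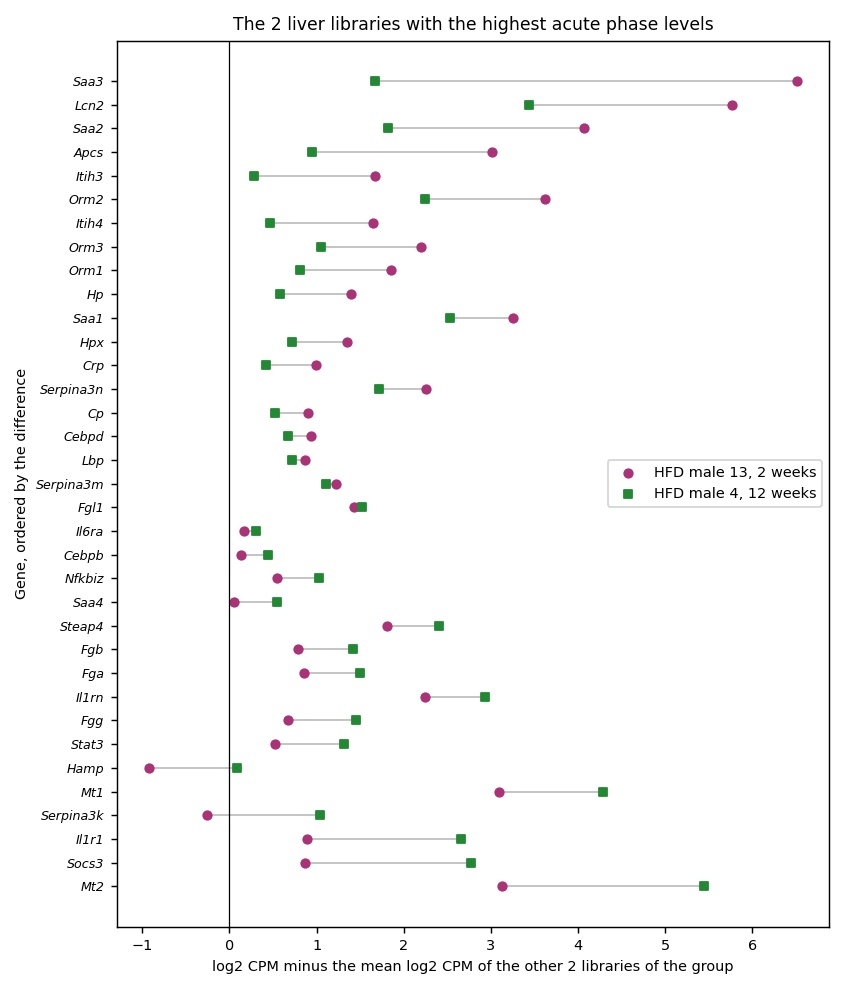
For each of the 35 genes (y axis, ordered by the difference) the log2 CPM over the mean log2 CPM of the other two libraries of the group (x axis) is shown in HFD male 13 at 2 weeks (circle) and HFD male 4 at 12 weeks (square). Saa3 at the top has 6.51 against 1.67, and at the bottom Mt2 has its square, at 5.45, to the right of its circle.

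Of the 9 genes, 8 had a listed promoter (not Orm1), and of the 6, 5 had one (not Serpina3k). STAT letters stood in Apcs and Itih4 of the 9 and in Hamp and Socs3 of the 6. C/EBP letters stood in Saa3, Lcn2, Saa2, Orm2 and Orm3 of the 9 and in Il1r1 and Mt2 of the 6, and metal response letters in Orm3 of the 9 and in Mt1 and Mt2 of the 6. CTGGGAA stood in Apcs of the 9, and the glucocorticoid receptor letters in Mt1 of the 6. Many context genes in HFD male 4 at 12 weeks also stood high. Of 12 unfolded protein response genes, 11 were highest there among the 3 HFD males, 8 of them more than 2-fold above both others. For 10 immediate early genes these counts were 8 and 7, and for 9 neutrophil markers 9 and 7. All 12 macrophage and Kupffer cell markers were highest there too, 0 of them more than 2-fold. Negative acute phase genes were also mostly high, with 10 of 14 highest there, 0 of them more than 2-fold, and 2 lowest. Of 6 adipocyte markers 5 were highest there, 4 of them more than 2-fold. Of 10 glucocorticoid targets, 2 were highest there and 6 lowest. In HFD male 13 at 2 weeks the unfolded protein response gave 6 of 12 with 0 above 2-fold, and the immediate early genes 3 of 10. The part of these differences in the acute phase values was not tested.

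The fat library numbered 4 from HFD males at 12 weeks shared this pattern for a few genes only. It was the highest of its group for 13 of the 35 genes and the lowest for 15, against 37.3% and 36% of all genes. Of the 21 genes that exceeded 1 on the log2 scale in liver, 4 did so in fat. No share over all genes was computed for that count. Mt1 was at 101, 109 and 410 CPM in the fat of HFD males 2, 3 and 4, Mt2 at 94.1, 106 and 517 CPM, Socs3 at 9.65, 10.5 and 39.1 CPM and Il1r1 at 45.8, 47.7 and 130 CPM. Number 4 was the highest library for each. These 4 genes exceeded the other two libraries by more than 1 on the log2 scale in both tissues: Mt1 by 4.29 in liver and 1.96 in fat, Mt2 by 5.45 and 2.37, Socs3 by 2.77 and 1.96, and Il1r1 by 2.66 and 1.48. Over the 35 genes, Pearson's r between the 2 tissues' deviations was 0.592 for number 4. It was −0.0406 for HFD male 13 at 2 weeks, where 1 gene, Saa3, exceeded 1 in both tissues. The 24 such values ranged from −0.239 to 0.665. They describe profiles over genes that are not independent of each other and share library scaling. In that fat library all 10 immediate early genes were highest among the 3 HFD males, 8 of them more than 2-fold, while 0 of 10 hepatocyte markers were.

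**Figure D4:**
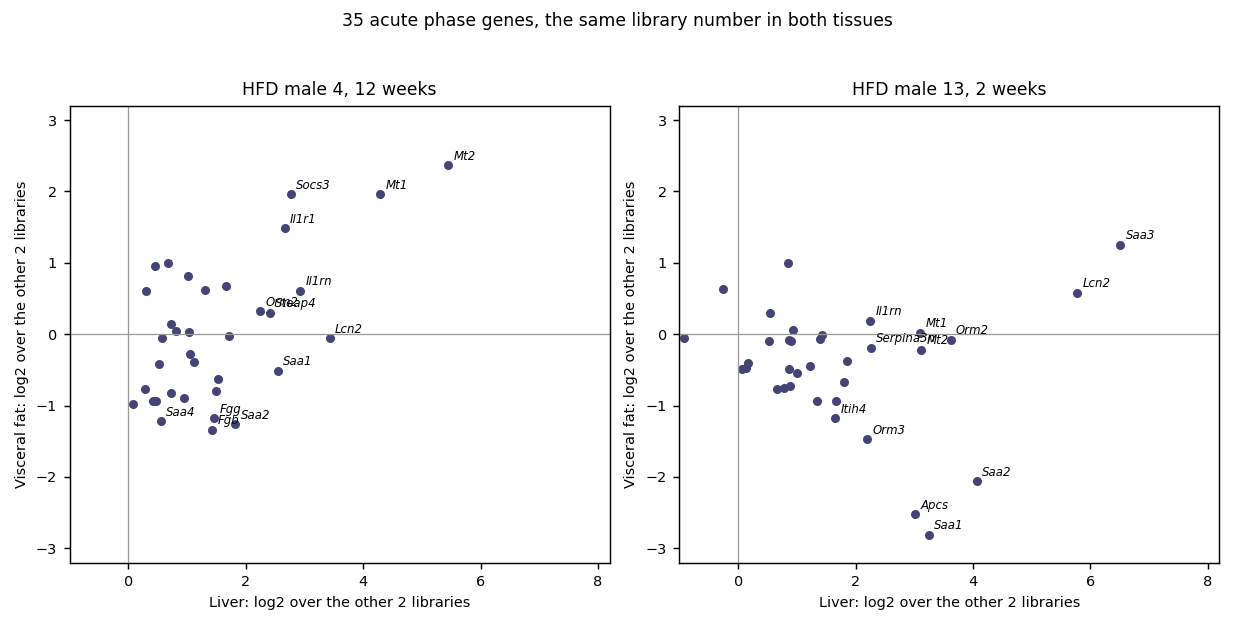
Each point is 1 of the 35 genes, placed by its log2 level over the other two libraries of the group in liver (x axis) and in fat (y axis), for HFD male 4 at 12 weeks and HFD male 13 at 2 weeks. Mt2 (5.45 in liver, 2.37 in fat) and Mt1 (4.29, 1.96) lie at the upper right for male 4. For male 13 only Saa3 exceeds 1 in both tissues. Saa1 (3.25 in liver, −2.81 in fat), Apcs (3.01, −2.52) and Saa2 (4.07, −2.06) lie at the lower right for male 13.

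In females edgeR called none of the 35 genes for diet in liver at 2 weeks, while 0.252% of all genes were called. At an unadjusted p under 0.05 there were 3, Hamp, Saa4 and Hp, and DESeq2 called 0. Hamp was at 150, 252 and 193 CPM on HFD and 608, 640 and 775 CPM on RD, with groups far apart (log2 fold change −1.76 ± 0.60, adjusted p = 0.311). Saa4 was at 311, 359 and 295 CPM against 230, 187 and 215 CPM (0.61 ± 0.22, adjusted p = 0.348), and Hp at 1954, 1848 and 3245 CPM against 1132, 1325 and 1038 CPM (1.01 ± 0.37, adjusted p = 0.356). All HFD females were above all RD females for 13 genes and below for 3, against 7.87% and 9.09% of all genes. Mt2 was among the 13, at 119, 109 and 158 CPM against 19.4, 28.8 and 61.3 CPM. Saa1 was not, at 34.2, 24.7 and 119 CPM against 24.9, 31.1 and 22.9 CPM.

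At 12 weeks edgeR called 0 of the 35 genes for diet in female liver, 0 had an unadjusted p under 0.05 and DESeq2 called 0, while 0.00629% of all genes were called by edgeR. Hamp was then at 390, 596 and 550 CPM on HFD and 590, 686 and 381 CPM on RD, with overlapping groups. The median log2 fold change over the 35 genes was 0.32 at 2 weeks and 0.04 at 12 weeks. The sex by diet interaction in liver, which tests whether the diet effect differed between the sexes, called 0 of the 35 genes at either time, as it did for all genes (0.0%), and 0 of the 35 without male 13 or the 12-week male 4. At an unadjusted p under 0.05 there were 13 at 2 weeks and 2 at 12 weeks, and DESeq2 called 1 and 0. A different diet effect of the 2 sexes in liver was therefore not shown by edgeR.

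By edgeR's calls the sexes differed most on HFD at 2 weeks. Of the 35 genes, 20 were lower in females and 1 was higher, against 6.06% and 6.33% of all genes, and the median log2 fold change (female over male) was −1.30 (−0.84 without male 13). Saa1 was at 34.2, 24.7 and 119 CPM in females against 752 to 10445 CPM in males (log2 fold change −6.17 ± 1.31, adjusted p = 0.00492). Steap4 was at 106, 114 and 79.2 CPM against 321 to 1711 CPM (−3.21 ± 0.61, adjusted p = 0.00172). The female and male groups did not overlap for either gene. The 20 lower genes were all 4 serum amyloid A genes, Hp, Hpx, Orm1, Orm2, Lcn2, the 3 fibrinogen chains, Itih3, Itih4, Crp, Apcs, Serpina3n, Serpina3k, Stat3 and Steap4. Il6ra was the gene higher in females, at 48.7, 57.4 and 63.4 CPM against 21, 26.7 and 26.8 CPM (1.19 ± 0.32, adjusted p = 0.0197).

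Leaving out male 13 kept 11 of these 21 calls: Saa1, Saa2, Saa4, Hp, Hpx, Orm1, Fga, Fgg, Serpina3k, Steap4 and Il6ra. Saa1's log2 fold change was then −4.31, Steap4's was −2.41 and Saa4's −1.67. The calls of Saa3 (−0.92), Lcn2 (−1.41), Orm2 (−1.64), Apcs (−0.54), Itih3 (−0.20), Itih4 (−0.18), Crp (−0.36), Serpina3n (−0.96), Fgb (−0.86) and Stat3 (−0.84) were lost. Males 12 and 14 were still both above all 3 HFD females for 20 of the 35 genes, where 17.3% of all genes had this order. Negative acute phase proteins, which the liver makes less of in inflammation, were called higher in females for 4 of 14 and lower for 0. Among them Alb, serum albumin, had 97640 ± 5312 CPM in the female and 43790 ± 5523 CPM in the male group (SD, n = 3; 1.16 ± 0.15, adjusted p = 2.79e-05), and Serpina6, the corticosteroid-binding globulin, had 370 ± 126.3 against 82.53 ± 18.17 CPM (2.16 ± 0.30, adjusted p = 5.62e-05). Of 25 other acute phase genes and paralogs 3 were higher and 4 lower, among them the complement component C9 at 197.3 ± 32.39 against 923 ± 107.2 CPM (−2.23 ± 0.23, adjusted p = 9.3e-07). Without male 13, 3 of the 14 negative acute phase genes were higher and 0 lower, 3 of the 25 others were higher and 2 lower, and Alb (1.06), Serpina6 (2.00) and C9 (−2.29) were still called.

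Saa4 and Serpina3k differed between the sexes in all 4 liver comparisons. Serpina3k was at 5959 to 8669 CPM in RD females and 13214 to 15953 CPM in RD males at 2 weeks (log2 fold change −1.11 ± 0.24, adjusted p = 0.00552). At 12 weeks it was at 3125 to 4604 CPM in RD females and 9035 to 12418 CPM in RD males (−1.53 ± 0.24, adjusted p = 0.000361), and at 3090 to 3964 CPM in HFD females and 7544 to 17861 CPM in HFD males (−1.74 ± 0.25, adjusted p = 5.41e-05). Female and male groups did not overlap at any of these points. Saa4 was lower in females by 1.23 on RD at 2 weeks, 1.69 on HFD at 2 weeks, 1.02 on RD at 12 weeks and 1.18 on HFD at 12 weeks, on the log2 scale. Its adjusted p-values were 0.00129, 3.96e-05, 0.00624 and 0.00108. On HFD at 12 weeks both genes were still called without HFD male 4, at −0.97 for Saa4 and −1.29 for Serpina3k. Without RD male 4 at 12 weeks, the Saa4 call on RD at 12 weeks was lost (−0.80, adjusted p = 0.0527).

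The remaining edgeR sex calls in liver were few, while the order of the libraries separated more genes. At 2 weeks on RD, all 3 females were below all 3 males for 15 of the 35 genes and above for 5. Over all genes these shares were 18.2% and 22.2%. On HFD at 2 weeks the counts were 19 and 1, against 12.6% and 14.1%. With the compared groups fitted alone, more of the 35 were called for sex on RD than on HFD at 2 weeks. On RD at 2 weeks 3 genes were lower in females (4.45% of all genes) and 1 was higher (5.37%). Hp was at 1132, 1325 and 1038 CPM in females against 2789, 2469 and 3999 CPM in males (−1.40 ± 0.38, adjusted p = 0.0228), and Orm3 was higher at 2.68, 5.66 and 7.47 CPM against 0.621, 0.436 and 0.718 CPM (3.15 ± 0.73, adjusted p = 0.0103). On RD at 12 weeks 3 genes were lower (3.18% of all genes), the third being Socs3, at 6.15, 5.16 and 8.62 CPM against 25.1, 13.4 and 75 CPM (−2.51 ± 0.72, adjusted p = 0.0352, lost without RD male 4). On HFD at 12 weeks 5 genes were lower (7.4% of all genes). They included Il1r1, at 52.3, 41.5 and 20.1 CPM against 71.4, 118 and 578 CPM (−2.75 ± 0.58, adjusted p = 0.00305), with separate groups. Stat3 and Steap4 completed the list, and both calls were lost without HFD male 4 (adjusted p = 0.361 and 0.391), whereas Il1r1 kept its call (−1.29, adjusted p = 0.0284). Macrophage and Kupffer cell markers moved the other way in that comparison, with 10 of 12 higher in females (11 without HFD male 4), and their part in it was not tested. Hamp was not called for sex, but its copy Hamp2 was at 392.2 ± 109 CPM in RD females and 11.28 ± 3.356 CPM in RD males at 2 weeks (SD, n = 3; 5.12 on the log2 scale, adjusted p = 6.09e-05). Exchange of reads between the copies was not tested.

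Between 2 and 12 weeks on HFD, male livers showed the second broad difference of the set. At 12 weeks 17 of the 35 genes were lower than at 2 weeks and 1 was higher, against 9.4% and 7.71% of all genes, with a median log2 fold change of −1.03 (−0.59 without male 13 and −1.75 without the 12-week male 4). Saa1 was at 18.8, 54 and 185 CPM at 12 weeks against 752 to 10445 CPM at 2 weeks (−5.63 ± 1.28, adjusted p = 0.00592). Hpx was at 2043, 2300 and 3576 CPM against 7189, 17105 and 6287 CPM (−1.95 ± 0.32, adjusted p = 0.000311). Itih3 was at 444, 517 and 582 CPM against 958, 3390 and 1183 CPM (−1.84 ± 0.32, adjusted p = 0.000536). In these 3 genes each 12-week library was below each 2-week library. Il6ra was the gene that was higher, at 53.4, 63.7 and 71.8 CPM against 21, 26.7 and 26.8 CPM (1.34 ± 0.32, adjusted p = 0.00752).

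Without male 13, 10 of the 18 calls remained, among them Saa1 (−3.77), Saa2 (−4.47), Hp (−1.27), Hpx (−1.35), Orm1 (−1.17), Orm2 (−2.34), Itih3 (−1.06) and Il6ra (1.40). With both male 13 and the 12-week male 4 left out, 15 of the 18 remained, and Orm3, Lcn2 and Il6ra did not. Males 12 and 14 at 2 weeks were both above all 3 HFD males at 12 weeks for 12 of the 35 genes, where 19.5% of all genes had this order. Of 25 other acute phase genes and paralogs, 11 were lower and 0 higher at 12 weeks, among them the complement component C3 at 7140 ± 1438 CPM against 13660 ± 5046 CPM (SD, n = 3; −0.94 ± 0.20, adjusted p = 0.00264). Of 14 negative acute phase genes, 4 were higher, including Alb at 71060 ± 5583 against 43790 ± 5523 CPM (0.70 ± 0.15, adjusted p = 0.00313). Without male 13, 3 of the 25 were lower and 3 of the 14 higher, and without the 12-week male 4 these counts were 13 and 3. C3 was then at −0.59 and −1.14, and Alb at 0.60 and 0.73, all still called. In the same comparison 11 of 12 macrophage and Kupffer cell markers were lower, 10 of 12 without male 13, with summed levels of 129.9 to 229.3 CPM at 12 weeks and 488.2 to 895.5 CPM at 2 weeks. Their part in the acute phase values was not tested. The 2 time points were separate cohorts in the study's design, so time on the diet, age and cohort cannot be told apart.

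Time made less difference elsewhere in liver. In RD males edgeR called 0 of the 35 genes, 4 had an unadjusted p under 0.05 and DESeq2 called 0, with 0.233% of all genes called. RD females gave 0 calls, 1 unadjusted and 0 by DESeq2, and HFD females 0, 5 and 1, with 0.0% and 0.0189% of all genes called. In HFD females, 12 of the 35 genes were below every 2-week library at 12 weeks, where 7.22% of all genes had that order.

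Fat expressed part of the set at levels close to those of liver. All 24 liver libraries were above all 24 fat libraries for 14 of the 35 genes (5.1% of all 15587 genes tested in both), and all fat libraries were above all liver libraries for 1, Cebpd, a C/EBP factor (34.7% of all genes). The median level of Hp was 1920 CPM in liver and 1845 CPM in fat. Lbp had 134 and 151.5 CPM, Serpina3n 397.1 and 376.1 CPM and Steap4 145.8 and 512.3 CPM. Fga, in contrast, had a median of 5030 CPM in liver and 8.732 CPM in fat.

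Fat levels were also set against the trace of hepatocyte markers in the same library. That trace, the median level of the 10 markers as a percent of their liver level, ran from 0.0558% to 1.36%. The summed level of the same markers had a median of 2387 CPM in fat and 25640 CPM in liver, a larger share than the trace. The markers therefore differed in their share, and the trace is not a measured amount of hepatocyte RNA. For 14 genes (the 3 fibrinogen chains, Itih3, Itih4, Hamp, Hpx, Apcs, Saa1, Saa2, Saa4, Serpina3k, Crp and Fgl1) the median fat level relative to liver lay within 4-fold of this trace. Serpina3m had a median of 6.24 times the trace, and 20 genes exceeded it more than 10-fold. The median was 272.1 times for Hp, 440.6 for Serpina3n, 562 for Lbp, 1052 for Steap4 and 3102 for Orm3.

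**Figure D5:**
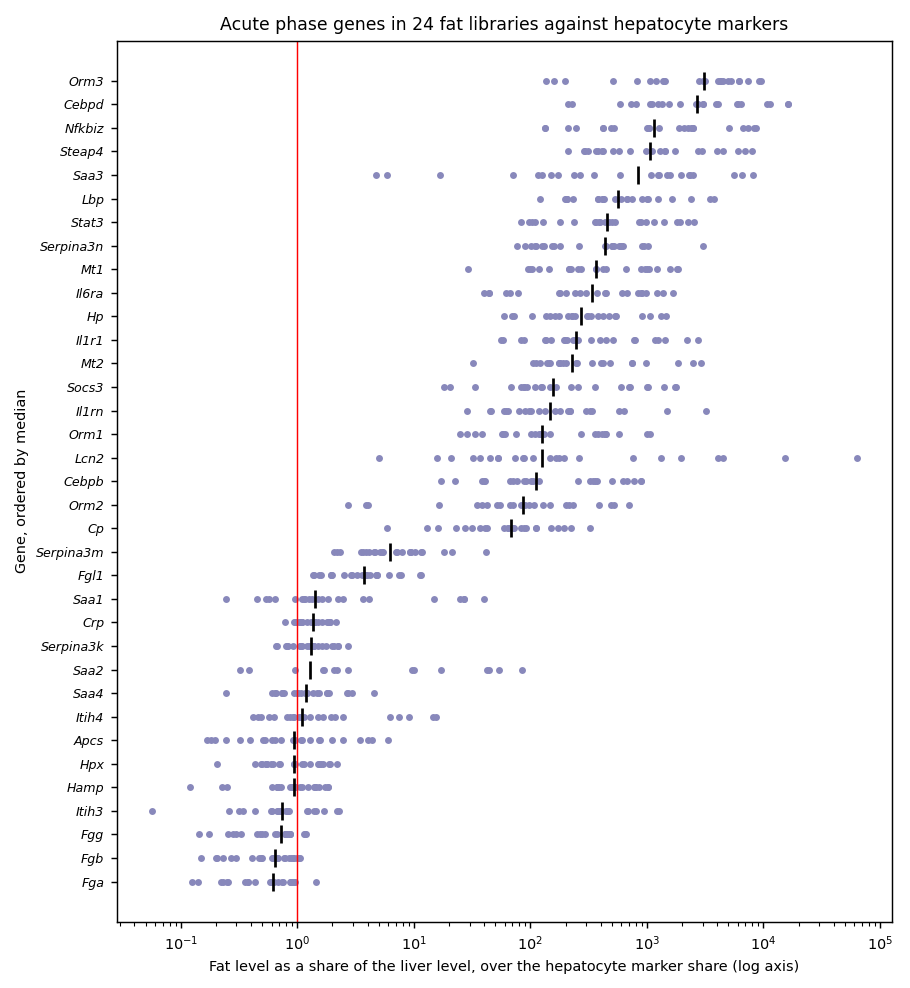
Each point is 1 of 24 fat libraries and shows a gene's fat level as a share of its liver level, divided by the same share for hepatocyte markers (log axis, red line at 1), with a black bar at the median of the 24. Medians run from 0.615 for Fga to 3102 for Orm3, and 11 of the 840 values are at 0 and are not drawn.

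In female fat at 12 weeks the diet comparison called 6 of the 35 genes higher and 1 lower, against 1.3% and 0.775% of all genes. Lbp was at 364, 441 and 359 CPM on HFD and 80.4, 130 and 81.2 CPM on RD (log2 fold change 2.00 ± 0.25, adjusted p = 0.000261). Serpina3n, an inhibitor of serine proteases, was at 742, 772 and 792 CPM against 252, 264 and 233 CPM (1.62 ± 0.31, adjusted p = 0.0106). Hp was at 1444, 1498 and 2549 CPM against 528, 398 and 551 CPM (1.89 ± 0.40, adjusted p = 0.0175). In each case all HFD libraries were above all RD libraries.

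Saa3 was at 18, 69 and 28.6 CPM on HFD and 1.42, 1.32 and 6.33 CPM on RD in the same comparison (log2 fold change 3.67 ± 0.92, adjusted p = 0.0445). Serpina3m was at 14, 30.2 and 13.4 CPM against 2.71, 2.75 and 3.27 CPM (2.72 ± 0.50, adjusted p = 0.00687), and Il1rn at 1.87, 7.29 and 4.33 CPM against 0.919, 1.21 and 1.18 CPM (2.03 ± 0.47, adjusted p = 0.0275). Cp was the gene that was lower, at 59.3, 106 and 66.5 CPM against 276, 293 and 252 CPM (−1.82 ± 0.31, adjusted p = 0.00333). The HFD and RD groups did not overlap for any of these. All 7 called genes were among the 21 above the hepatocyte trace. The 14 others had a median log2 fold change of 2.45 with 0 called, and the trace itself was 0.0687% to 1.36% on HFD and 0.0721% to 0.17% on RD. Its part in their values was not tested. Without HFD female 6, which had the highest trace, 5 of the 7 calls remained, and those of Saa3 and Il1rn were lost.

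In male fat at 12 weeks 5 of the 35 genes were called higher on HFD and 2 lower, where 13.2% and 15.0% of all genes were, so the share called higher lay near the background and the share called lower below it. Il1rn had the largest fold change, at 24.7, 26.4 and 39 CPM on HFD and 1.49, 0.768 and 1.53 CPM on RD (4.57 ± 0.52, adjusted p = 1.13e-05). Lbp was at 374, 363 and 407 CPM against 162, 136 and 101 CPM (1.52 ± 0.25, adjusted p = 0.000408), close to its values in female fat. Il6ra was at 36.4, 38.3 and 57.1 CPM against 20.5, 15.3 and 6.9 CPM (1.63 ± 0.42, adjusted p = 0.0104). The groups of these 3 genes did not overlap.

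Stat3 was also higher, at 143, 160 and 232 CPM against 134, 87.9 and 78.1 CPM (0.83 ± 0.26, adjusted p = 0.0267), as was Cebpb, at 55.6, 48.4 and 101 CPM against 30.3, 20 and 27.2 CPM (1.41 ± 0.24, adjusted p = 0.00069). Fgl1, a fibrinogen-like protein of the liver, was lower at 2, 2.45 and 1.42 CPM against 13.2, 6.46 and 6.22 CPM (−2.14 ± 0.48, adjusted p = 0.00438). Cp was lower at 132, 153 and 106 CPM against 274, 308 and 148 CPM, with overlapping groups (−0.90 ± 0.30, adjusted p = 0.0333). Without HFD male 4 the calls of Cp, Il6ra and Stat3 were lost and 4 remained. Of the other lists, 5 of 15 cytokines and receptors were called higher and 0 lower, led by Tnfrsf1b at 129.1 ± 31.16 CPM against 29.83 ± 10.52 CPM (SD, n = 3; 2.11 ± 0.25), and 5 of 25 transducers and factors were higher and 1 lower. Among markers of other cells, 6 of 12 macrophage markers were higher and 4 of 10 hepatocyte markers lower on HFD, and the hepatocyte trace was 0.0991% to 0.337% on HFD and 0.455% to 1.21% on RD. Of the epithelial markers 6 of 8 were called lower on HFD. Of the epididymis markers 1 of 9 was, a share below the 15.0% of all genes called lower. The part of these cells was not tested.

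Diet at 2 weeks gave 0 calls among the 35 genes in fat by edgeR. In females 0.235% of all genes were called, 9 of the 35 had an unadjusted p under 0.05 and DESeq2 called 3. In males 0.0% were called, 5 of the 35 had an unadjusted p under 0.05 and DESeq2 called 0. Lcn2 had the widest single values there, at 2196 CPM in HFD female 1 and 630 CPM in RD male 6, against a median of 4.43 CPM over the 24 fat libraries. Both libraries carried markers of other tissue, with Wfdc2 at 348 CPM and the lactoferrin gene Ltf at 3627 CPM in the former and the epididymal gene Gpx5 at 2975 CPM in the latter. These marker genes were named after their values were seen, and their part in Lcn2 was not tested.

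Sex differences of these genes in fat were led by Hp. It was at 638, 994 and 394 CPM in RD females and 3837, 2402 and 2505 CPM in RD males at 2 weeks (log2 fold change, female over male, −2.11 ± 0.40, adjusted p = 0.00695). On HFD at 2 weeks it was at 302, 1049 and 498 CPM against 2158, 2322 and 2743 CPM (−1.97 ± 0.40, adjusted p = 0.0121), and on RD at 12 weeks at 528, 398 and 551 CPM against 1532, 2652 and 2187 CPM (−2.11 ± 0.40, adjusted p = 0.0062). The groups were separate each time. On HFD at 12 weeks Hp was at 1444, 1498 and 2549 CPM in females and 3088, 3504 and 3172 CPM in males, and it was not called.

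On RD at 2 weeks 4 of the 35 genes were lower in female fat (2.34% of all genes): Hp, Serpina3n, Serpina3m and Il1rn. Serpina3n stood at 188, 185 and 187 CPM in female fat against 570, 532 and 541 CPM in male fat (−1.55 ± 0.31, adjusted p = 0.0102). On HFD at 2 weeks 3 were lower (1.8% of all genes), Hp, Saa1 and Saa2. In fat Saa1 was at 0.13, 0.132 and 0.0149 CPM in these females and 7.92, 1.68 and 18 CPM in the males. Relative to liver, those male values were 0.951, 0.244 and 1.84 times the hepatocyte trace, and those of Saa2 were 0.948, 0.385 and 1.64 times. The liver level used was the mean of 3 male livers, with male 13 the highest. They spanned 752 to 10445 CPM for Saa1 and 110 to 4081 CPM for Saa2. A mean without male 13 would be lower and these ratios higher. The trace was 0.0558% to 0.195% in the females and 0.161% to 0.23% in the males, and mean liver Saa1 was 59.4 CPM in females against 4263 CPM in males. The part of the trace in both calls was not tested. On the same diet Cebpb was higher (2.0% of all genes), with a female level of 73.86 ± 12.9 CPM and a male level of 33.08 ± 6.091 CPM (SD, n = 3; 1.16 ± 0.24, adjusted p = 0.0144). On HFD at 12 weeks 2 were lower (1.81% of all genes), Il1rn at 1.87, 7.29 and 4.33 CPM against 24.7, 26.4 and 39 CPM (−2.74 ± 0.48, adjusted p = 0.00298) and Mt1 at 52.57 ± 37.52 against 206.8 ± 176 CPM (−1.98 ± 0.52, adjusted p = 0.0474). The Mt1 call was lost without HFD male 4 (−1.0, adjusted p = 0.495) and without HFD female 6 (−1.71, adjusted p = 0.22).

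On RD at 12 weeks 10 of the 35 genes were lower in female fat and 1, Cebpb, was higher, against 6.16% and 4.45% of all genes. Of the 10, 7 belonged to the 14 genes whose median over all 24 fat libraries lay near the hepatocyte trace: Saa1, Saa2, Saa4, Hpx, Fgl1, Apcs and Serpina3k. In the RD males of this comparison, however, Saa1 stood at 39.8, 24.9 and 27.1 times the trace, Saa2 at 83.9, 54 and 43.8 times and Fgl1 at 4.87, 4.81 and 6.12 times. The others were Hp, Mt1 and Mt2. Saa1 was at 0.0484, 0.0557 and 0.0254 CPM in the females against 22.2, 6.9 and 5.69 CPM in the males (−8.04 ± 1.55, adjusted p = 0.00652). Saa2 had 0 counts in all 3 RD females and a mean of 3.1 CPM in the males, at least 65.5-fold higher against a floor of 3 counts per library (adjusted p = 0.0106). The hepatocyte trace was 0.0721% to 0.17% in these females and 0.455% to 1.21% in the males, without overlap, and its part in the calls was not tested. Cebpb was at 66.2, 64.8 and 71.5 CPM against 30.3, 20 and 27.2 CPM (1.39 ± 0.24, adjusted p = 0.00371). Without RD female 8, 4 of the 11 calls remained, those of Saa1, Saa2, Hp and Cebpb.

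The sex by diet interaction in fat at 12 weeks called 2 of the 35 genes, 1 in each direction, against 0.295% and 0.955% of all genes. Cebpb was at 59.7, 67.5 and 52.4 CPM in HFD females and 66.2, 64.8 and 71.5 CPM in RD females, while it was higher on HFD in males, an interaction of −1.58 ± 0.34 on the log2 scale (adjusted p = 0.0286). Fgl1 was at 2.01, 7.36 and 3.77 CPM in HFD females and 2.32, 2.91 and 2.28 CPM in RD females, while it was lower on HFD in males (2.94 ± 0.66, adjusted p = 0.0359). In the same interaction the 10 hepatocyte markers had a median of 3.70 with 0 called, and the 14 genes near the hepatocyte trace, Fgl1 among them, had a median of 4.10. Over the 24 fat libraries Fgl1 had a median of 3.717 times the trace, with 15 of them within 4-fold. The part of that trace in Fgl1 was not tested. Leaving out 1 library at a time kept the Cebpb call in 4 of 12 fits (adjusted p 0.0183 to 0.101) and the Fgl1 call in 2 of 12 (0.0307 to 0.127). At 2 weeks the fat interaction called 0 of the 35 genes and 0.0% of all genes, 5 of the 35 had an unadjusted p under 0.05, and DESeq2 called 1.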

How the data were processed

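Stranded mRNA libraries were made from 200 ng of total RNA, per the labels' protocols. The deposited values are expected counts, which the authors estimated for every gene symbol. Per the submitters' processing notes the tools were kallisto, edgeR and DESeq2 and the build was GRCm38, with no versions or roles. All 48 columns matched a sample and none was left unused.

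After rounding, liver and fat were modelled separately, each over 24 libraries and 8 groups, in edgeR 4.0.16 (limma 3.58.1, R 4.3.3). Genes passed filterByExpr, scaling used TMM, and glmQLFit ran with robust = TRUE over 24 comparisons, 14 in liver and 10 in fat. The SE was taken as the absolute log2 fold change over the square root of F, an approximation, and the log2 CPM used a prior count of 2. Tables were made in Python 3.11.15 with pandas 2.3.3 and numpy 2.4.6. Steps were tested on simulated data.

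Per-kilobase levels used the longest protein-coding transcript, not the longest annotated one as planned, because those of Saa1 and Saa2 retain an intron. Promoters came from the RefSeq table for GRCm38.p6. None was listed there for Hp, Orm1, Fgl1, Serpina3m, Serpina3k, Lbp, Cebpd and Nfkbiz.

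The 35 genes, the other lists and the naming rule were chosen with earlier results of these data known. By that rule, values per library are given for genes that were called or that a result turns on, and up to 4 called genes by smallest p, or up to 2 uncalled ones, are named per further list. Further lists were cytokines and receptors, transducers and factors, negative acute phase genes, other acute phase genes and paralogs, glucocorticoid targets, immediate early genes, unfolded protein response genes and markers of 7 cell or tissue types.

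Alternatives were DESeq2 1.42.0, median-of-ratios size factors, TMM factors without the 35 genes, no filter on low counts, each comparison's groups fitted alone, each library left out in turn and, where groups share numbers, the number as a block. For same-numbered fat libraries of males at 12 weeks, r between deviations from their group means across diets was 0.108, 0.134 and 0.154. Each passed a set minimum of 0.1, and different numbers there gave at most 0.0155. In female fat at 2 weeks, however, libraries of different numbers reached 0.265. Such values therefore do not show that the numbers are pairs, and the main fits used none. In liver males at 12 weeks r was −0.112, 0.0505 and 0.127 for the same numbers, and up to 0.169 for different ones.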

Additional observations from a re-analysis of the deposited data

Results flagged for a closer look

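For Fgl1 and Cebpb in fat at 12 weeks the diet effect differed between the sexes by the interaction test in edgeR. The interaction of Fgl1 was 2.94 on the log2 scale, with an HFD over RD log2 fold change of 0.81 ± 0.46 in females (adjusted p = 0.461) and −2.14 ± 0.48 in males (adjusted p = 0.00438). For Cebpb it was −1.58, with −0.17 ± 0.24 in females (adjusted p = 0.833) and 1.41 ± 0.24 in males (adjusted p = 0.00069). Fgl1 is one of the 14 genes near the hepatocyte trace in fat, at a median of 3.717 times the trace, with 15 of 24 libraries within 4-fold. The 10 hepatocyte markers had a median of 3.70 in this interaction, and the part of the trace in Fgl1 was not tested. With 1 library left out at a time the call was kept in 2 of 12 fits for Fgl1 and 4 of 12 for Cebpb. Both were lost without HFD female 6 or 7, RD female 5 or 8, HFD male 4, or RD male 3 or 4. Both kept their sign with each of 12 libraries left out in turn, from 2.35 to 3.29 for Fgl1 and from −1.78 to −1.18 for Cebpb.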

How the results depend on the processing

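Of 1033 refitted values for the 91 called gene changes, 807 kept direction and call, 226 kept direction only and 0 reversed. The counts below are genes called of 35, and the cause of each shift was not tested. With DESeq2, liver gave 17 for diet in males at 2 weeks and 3 at 12 weeks, 8 for sex on RD at 2 weeks, 8 for sex on HFD at 12 weeks, 1 for the interaction at 2 weeks and 1 for time in HFD females. Fat gave 3 for diet in females at 2 weeks, 13 in males at 12 weeks, 7 for sex on RD at 2 weeks, 17 on RD and 4 on HFD at 12 weeks, and 1 and 13 for the interactions at 2 and 12 weeks. DESeq2 gave no adjusted p for 2 of the genes in each liver comparison. With the compared groups fitted alone, which leaves fewer libraries to estimate the spread, liver gave 0 for diet in males at 2 weeks, 16 for sex on RD and 10 on HFD at 2 weeks, 6 on RD and 2 on HFD at 12 weeks, and 1 and 2 for time in RD and HFD males. Fat gave 12 for diet in males at 12 weeks, 0 for sex on HFD at 2 weeks and 9 for the interaction at 12 weeks. Without the filter on low counts, sex on HFD at 12 weeks in fat gave 1. The lowest and highest counts with 1 library left out were, in liver, 0 to 10 and 0 to 2 for diet in males at 2 and 12 weeks, 3 to 4 and 11 to 21 for sex on RD and HFD at 2 weeks, 1 to 3 and 3 to 9 at 12 weeks, and 11 to 23 for time in HFD males. In fat they were 0 to 3 and 2 to 6 for diet in females at 2 and 12 weeks, 4 to 7 in males at 12 weeks, 2 to 4 and 3 to 4 for sex on RD and HFD at 2 weeks, 4 to 9 and 1 to 2 at 12 weeks, and 0 to 3 for the interaction at 12 weeks. All other comparisons stayed at 0 to 0. The count of 0 for diet in liver males at 2 weeks came without HFD male 13 or without any 1 of the RD males. In female fat at 12 weeks the count of 2 came without RD female 5. Leaving out both HFD male 13 at 2 weeks and HFD male 4 at 12 weeks, an alternative chosen after seeing the data, gave 19 calls for time in HFD males.

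With the replicate block, diet in males at 12 weeks gave 7 genes in fat and 0 in liver, and diet in females at 2 weeks gave 0 in both, so the block changed no call. Among females at 12 weeks the diets shared only number 7, so no block was fitted there.

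The limits are groups of 3 libraries, the spread within HFD male liver and the sequence shared by copies of Saa1, Orm2, Serpina3m and Hamp.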
